A study of Mus musculus with 6 samples.

Results

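The 8 genes described here are known from eosinophils, the granulocytes that enter the uterine stroma under hormonal control. They are the granule protein genes Prg2, Epx, Ear1, Ear2 and Ear6, the surface lectin Siglecf, the eotaxin receptor Ccr3 and the interleukin-5 receptor chain Il5ra. They were taken by name, 8 of the 30828 genes in the spatial tables, and 7 of them had a row among the 24077 genes of the single-cell table, where Epx had none. The genes were selected on levels already seen by section, spot cluster and cell type, so their own values are given as a description, with no p-value, and counts of them called in a fit over all genes are printed only beside the share over all genes. The samples were uteri of CD-1 mice collected at 12 months of age. CO mice were given the vehicle, corn oil, as newborn pups, and DES mice were given diethylstilbestrol, a synthetic estrogen, at 1 mg/kg/day over the same neonatal days. Per the study's methods, DES mice remain in estrus as adults, and CO mice were picked while in estrus for that reason. Spatial transcriptomics was run on sections CO A and CO B and on sections DES A and DES B, and single-cell RNA-seq on 1 CO library pooled from 2 mice and 1 DES library pooled from 4 mice. By the study's account the DES uteri carried cancer, section CO B had a tissue fold, clusters were harder to identify in section DES B, and stromal cells of the DES mice were not recovered as single cells.

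The label "eosinophil" was checked first, and detection of the granule genes in the sections did not bear it out. The check covers detection only, since a lack of UMIs at this depth does not show that eosinophils were absent. Epx, the eosinophil peroxidase, and Ear6 had no UMI (unique molecular identifier, a counted RNA molecule) in any of the 4 sections, and no cell of either single-cell library held 4 or more of the 7 genes listed there. In the CO library 1 cell held 3 or more, and in the DES library 6 cells did, where 1146 of 32387 and 446 of 16312 cells held at least 1. With so few cells holding any of the genes, few would hold several by share alone. Nothing is read from these counts of cells. The second granule major basic protein gene, Prg3, had 0, 1, 0 and 3 UMIs in CO A, CO B, DES A and DES B. The 8 genes were followed one by one, under their own names, and not as a population of cells.

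Eosinophils are made in the bone marrow under interleukin-5, which acts through Il5ra, and they follow eotaxins such as Ccl11 and Ccl24 into tissue through Ccr3. Their granules hold the major basic protein (Prg2), the peroxidase (Epx) and ribonucleases of the Ear family, and Siglecf is a lectin on their surface that binds sialic acid. In the normal mouse uterus they lie in the endometrial stroma and their number follows estrogen. Several of the 8 genes are also known from other leukocytes, such as macrophages and basophils.

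In the mm10 genome used by the study (GRCm38), Prg2 lies at chr2:84980461-84983632, Siglecf at chr7:43351341-43359531 and Ccr3 at chr9:124021972-124031689, all on the plus strand. Epx lies at chr11:87864000-87875536 and Il5ra at chr6:106710357-106749037, both on the minus strand. The 3 Ear genes share chromosome 14, with Ear1 at chr14:43818765-43875517 on the minus strand, Ear2 at chr14:44102654-44103534 on the plus strand and Ear6 at chr14:51853699-51854643 on the plus strand. The span of Ear1 also holds the pseudogenes Ear-ps12 and Ear-ps9 on its own strand. Because Ear1 and Ear2 were read together in many cells while Ear6 was nearly absent, their promoters are shown, 250 bases before to 50 after the annotated start, from RefSeq on GRCm38.p6. They are chr14:43819590-43819889 (minus strand) for Ear1, chr14:44102404-44102703 (plus strand) for Ear2 and chr14:51853518-51853817 (plus strand) for Ear6. The start that RefSeq gives Ear1 lies inside the gene span given above, which comes from another annotation and begins further upstream. Capitals in Ear2 and Ear6 mark bases with no identical partner in the alignment to Ear1.
Ear1: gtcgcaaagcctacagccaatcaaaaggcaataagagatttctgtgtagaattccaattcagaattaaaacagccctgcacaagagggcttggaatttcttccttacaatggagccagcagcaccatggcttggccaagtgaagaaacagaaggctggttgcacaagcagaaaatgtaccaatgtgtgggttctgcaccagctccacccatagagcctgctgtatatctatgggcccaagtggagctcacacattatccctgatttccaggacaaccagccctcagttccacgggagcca
Ear2: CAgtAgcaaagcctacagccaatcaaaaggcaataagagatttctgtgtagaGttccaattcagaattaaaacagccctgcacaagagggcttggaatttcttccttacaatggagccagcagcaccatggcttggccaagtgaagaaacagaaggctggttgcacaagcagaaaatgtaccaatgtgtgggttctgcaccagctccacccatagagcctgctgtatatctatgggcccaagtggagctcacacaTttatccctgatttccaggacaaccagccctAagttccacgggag
Ear6: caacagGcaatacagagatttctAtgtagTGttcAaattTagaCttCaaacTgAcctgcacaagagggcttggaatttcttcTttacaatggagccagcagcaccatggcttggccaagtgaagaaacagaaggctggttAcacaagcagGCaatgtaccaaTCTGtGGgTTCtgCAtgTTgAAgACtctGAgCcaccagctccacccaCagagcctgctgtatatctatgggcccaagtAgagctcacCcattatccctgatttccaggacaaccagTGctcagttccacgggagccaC
Ear1 and Ear2 were identical at 97.0% of 303 aligned columns, and the Ear2 line carries only 6 capitals. Ear6 was identical to Ear1 at 81.2% of 320 columns and carries 40 capitals. The motif CCAAT was present 3 times in Ear1, 3 times in Ear2 and 1 time in Ear6, counted on both strands, and 37.4% of 32851 RefSeq promoters of the same length held it. The motif TTGCNNAA was present 1 time in Ear1 and 1 time in Ear2 and was not found in Ear6 (10.8% of promoters), and AGATAA was found in none of the 3 (11.2% of promoters). AGATAA was found 1 time each in the promoters of Ccr3 and Il5ra. Promoter entries were matched for 7 of the 8 genes, all but Prg2.

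The likeness of Ear1 and Ear2 also bears on how far their counts can be told apart, since the reads came from the 3′ end of transcripts. Over the last 500 transcript bases Ear1 and Ear2 were 95.6% identical. Of the 90-base windows in that stretch, 73.7% of those of Ear1 and 90.3% of those of Ear2 were found in no other gene, against 100% for each of the other 6 genes. The partners of the shared windows were Ear1 or Ear2 themselves, Ear10, Ear-ps2 and Ear-ps9. The split of reads between Ear1 and Ear2 is uncertain to that extent.

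Sections held from 1357 to 1834 spots and from 9117099 to 12506177 UMIs, with a median per spot from 4116 in DES A to 6656 in CO A. Single-cell data covered 32387 CO cells (median depth 6779 UMIs) and 16312 DES cells (10153.5 UMIs), and 180 cell barcodes occurred in both, 1.1% of those of DES. Levels are given as CPM, UMIs per 1000000 UMIs of the section, cluster or cell type, with exact Poisson 95% intervals that cover counting error only. Spots hold several cells each, so fewer cells of a type and less RNA per cell cannot be told apart.

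Prg2 carried most of the signal of the 8 genes in the sections, 694 of their 870 UMIs (79.8%). It was counted 22 times in CO A and 60 times in CO B, against 244 times in DES A and 368 times in DES B. These counts were 1.76 CPM (95% interval 1.1 to 2.66), 5.44 CPM (4.15 to 7.0), 26.8 CPM (23.5 to 30.3) and 37.2 CPM (33.5 to 41.3). Both DES sections lay above both CO sections, and the intervals of the CO and DES sections did not overlap. Spots with at least 1 Prg2 UMI numbered 11, 44, 96 and 132 in the same order, and a single spot held up to 35 UMIs in DES A and up to 23 in DES B. The intervals allow neither for such clumping of UMIs in spots nor for spread between mice. Prg2 was selected with these levels known, and the share of all genes with a like separation is not given. The lack of overlap is therefore a description of these sections only. The fitted difference between DES and CO whole sections was 2.97 ± 0.553 on the log2 scale (SE, n = 2 sections per group). Of the 8 genes, 2 (Prg2 and Ear2) passed the filter on low counts and 0 were called by the edgeR quasi-likelihood test at an adjusted p of 0.05, where 2.67% of 14098 genes tested were called higher in DES and 2.63% lower. At an unadjusted p under 0.05 the count was 1, and DESeq2 called 1. Since the genes were selected on these values, nothing is read from those counts.

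**Figure D1:**
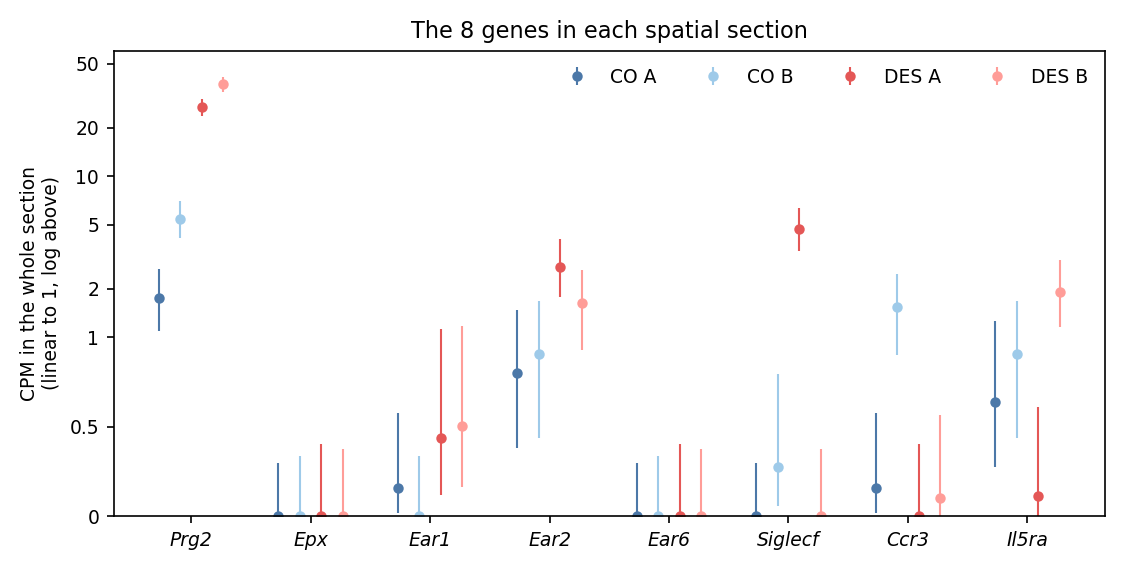
Level of each of the 8 genes in the 4 spatial sections, in CPM over all spots of a section, with exact Poisson 95% intervals. Prg2 is the gene with the highest level in all 4 sections, at 1.76 and 5.44 CPM in CO and 26.8 and 37.2 CPM in DES, while Epx and Ear6 are at 0 in every section.

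Stromal spots were taken as the clusters that the study names as stromal, cluster 8 of CO A, cluster 6 of CO B, cluster 4 of DES A and cluster 5 of DES B. Prg2 was counted 0, 23, 108 and 88 times there. In CO A, 0 UMIs among the 558480 of the cluster allowed a level of up to 5.37 CPM at a floor of 3 UMIs. The stromal cluster of CO B was at 24.9 CPM (15.8 to 37.4), and those of DES A and DES B were at 106 CPM (87.3 to 128) and 254 CPM (204 to 313). DES levels exceeded CO levels again, but the 2 CO sections also differed from each other. Stromal spots with Prg2 made up 0%, 8.51%, 10.4% and 13.6% of the cluster, so that most stromal spots held none. Spots outside the stromal clusters were at 1.84, 3.66, 16.8 and 29.4 CPM, and these spots held 136 of the 244 Prg2 UMIs of DES A and 280 of the 368 of DES B.

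The fitted difference between DES and CO stromal spots was 3.59 ± 0.876 on the log2 scale (SE, n = 2 sections per group). Prg2 alone of the 8 genes passed the filter there and 0 were called by edgeR, where 0.796% of 8914 genes were called higher and 0.673% lower. At an unadjusted p under 0.05 the count was 1, and DESeq2 called 0, and nothing is read from these counts either. Without CO B the fitted value was 9.84, as CO A has no stromal Prg2 UMI and the fit then depends on the prior count added by the software. Within sections the fitted log2 ratio of stromal to other spots was 2.15 ± 0.513 in CO and 2.98 ± 0.278 in DES (SE, n = 2 sections each). The CO ratio was 1.02 with DESeq2, 2.71 without CO A and -6.47 without CO B. The other 7 genes had at most 3 UMIs each in any stromal cluster.

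The levels of Prg2 followed those of plasma cell genes from section to section and cluster to cluster. A list of 7 plasma and B cell genes, among them Jchain, Mzb1, Igha and Igkc, summed to 354 and 1180 CPM in sections CO A and CO B, and to 6450 and 11500 CPM in sections DES A and DES B. Its order over the sections was that of Prg2. In the stromal clusters the list had 11 UMIs in CO A, where Prg2 had 0, and 4861, 16409 and 23370 UMIs in the others. The share of the list in the Prg2 result was not tested. Set against the list, Prg2 gave 4.97 UMIs per 1000 list UMIs in CO A (3.12 to 7.53) and 4.61 in CO B (3.52 to 5.93), and 4.15 (3.65 to 4.7) and 3.23 (2.91 to 3.58) in DES A and DES B. The ratios of the DES sections lay below those of the CO sections, with intervals that overlapped. In the stromal clusters of CO B, DES A and DES B they were 4.73 (3.0 to 7.1), 6.58 (5.4 to 7.95) and 3.77 (3.02 to 4.64).

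Of the other marker lists, the basal one was also far higher in DES, at 3.36 and 160 CPM in CO A and CO B and at 9530 and 5640 CPM in DES A and DES B. Its r with Prg2 over the 40 clusters was 0.492, and -0.216 after each section's mean was removed. Macrophage genes summed to 403, 662, 1010 and 759 CPM in CO A, CO B, DES A and DES B. Neutrophil genes summed to 18.2, 17.4, 283 and 29.8 CPM, high in DES A only. The list of mast cells and basophils stood at 21.0, 43.8, 30.9 and 22.6 CPM, and in DES B its genes Cpa3, Ms4a2, Fcer1a and Mcpt8 were at 0. Stroma genes stood at 3050 and 3040 CPM in CO against 1440 and 1000 CPM in DES, and muscle genes at 13300 and 14200 CPM against 3080 and 3460 CPM. Within the stromal clusters, stroma genes stood at 6510 and 4940 CPM in CO A and CO B against 3660 and 2760 CPM in DES A and DES B. The part of this shift in makeup in the Prg2 levels was not tested.

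Over the 10 spot clusters of each section, the cluster with the highest Prg2 level was cluster 7 in CO A (15 UMIs, 41.5 CPM), cluster 7 in CO B (13 UMIs, 28.3 CPM), the stromal cluster 4 in DES A and the stromal cluster 5 in DES B. The plasma and B cell list ranked 1st in that cluster in CO A and DES B, 2nd in CO B and 3rd in DES A. In DES B the clusters with the 3 highest levels of Prg2, clusters 5, 9 and 10, were at 254, 217 and 104 CPM for Prg2 and at 67500, 46800 and 43900 CPM for the list. Across the 40 clusters of the 4 sections, Pearson's r between log2 levels of Prg2 and of the list was 0.868, and 0.766 after each section's mean was removed. It was 0.632 with the macrophage list, 0.231 with the stroma list, 0.0936 with the neutrophil list and 0.0863 with the mast cell and basophil list. After removal of each section's mean, r was 0.745 with the stroma list, 0.56 with the macrophage list, -0.0827 with the neutrophil list and 0.0538 with the mast cell and basophil list. It was 0.671 with a list of endothelial genes and 0.547 with a list of hemoglobin genes, against 0.373 and 0.376 before removal. Within sections the plasma and B cell list was thus little apart from the stroma list. These values describe the clusters, which share libraries within a section and were formed on the same counts.

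**Figure D2:**
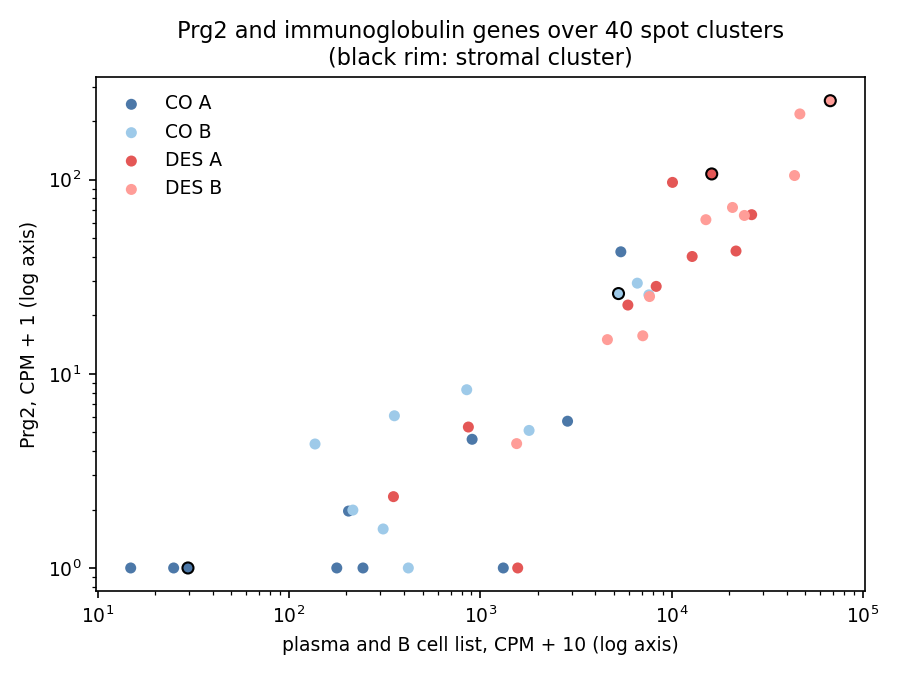
Level of Prg2 against the summed level of the 7 plasma and B cell genes in the 40 spot clusters (10 in each of 4 sections), on log axes in CPM, with colours for the sections and rings for the stromal clusters. Clusters with a high level of the list also have a high level of Prg2, from the stromal cluster of CO A with 0 Prg2 UMIs to that of DES B at 254 CPM.

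A finer split gave the same picture. Spots of each section were put into 4 equal bins by their level of the plasma and B cell list, a split chosen after the values were seen. The top bin held all 22 Prg2 UMIs of CO A, 75.0% of those of CO B, 95.1% of those of DES A and 91.8% of those of DES B. Levels in the top bin were 9.03, 23.5, 129 and 173 CPM, and in the lowest bin 0, 2.24, 0 and 0.718 CPM. When the bins were made by the stroma list, the top bin held 18.2%, 45.0%, 35.7% and 42.9% of the Prg2 UMIs. Prg2 levels also rose with that list, at 1.96, 15.5, 71.6 and 134 CPM in the top bin. In the lowest bin they were 0.602, 1.6, 4.59 and 8.6 CPM. Spots with Prg2 held a Jchain or Mzb1 UMI in 90.9%, 70.5%, 91.7% and 91.7% of cases, against 6.4%, 18.7%, 28.9% and 42.7% of spots without Prg2. Another of the 8 genes was present in 0, 1, 2 and 9 of the 11, 44, 96 and 132 Prg2 spots. Over all 1433, 1834, 1575 and 1357 spots of the sections, a member other than Prg2 was present in 21, 39, 52 and 30.

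**Figure D3:**
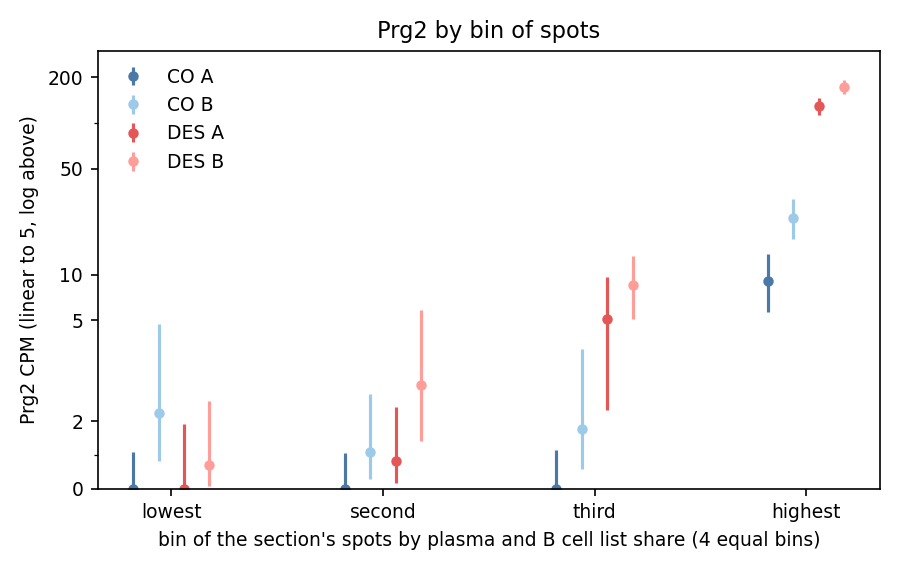
Level of Prg2 (CPM, exact Poisson 95% intervals) in 4 equal bins of the spots of each section, ordered by the summed level of the plasma and B cell genes. The level axis is linear to 5 CPM and logarithmic above. The top bin stands at 9.03 and 23.5 CPM in the CO sections A and B and at 129 and 173 CPM in the DES sections A and B, and the lowest bin at no more than 2.24 CPM.

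In the CO single-cell library Prg2 was read mainly in Lymphocytes. Of the cell types that the authors assigned, Lymphocytes held 408 Prg2 UMIs, 182 CPM (164 to 200), in 29 of 423 cells. That share of 6.86% was 7.1% (exact binomial 95% interval 4.5% to 10.5%) of 310 cells when each cell was thinned to 3000 UMIs and shallower cells were left out. At 5000 UMIs it was 18.3% (12.3% to 25.7%) of 142 cells, so the share depended on the depth and on which cells were deep enough. Epithelial cells, which should lack the gene, had 2 UMIs in 2583 cells despite a median depth of 23458 UMIs against 4033 in Lymphocytes. Stromal cells had 0 Prg2 UMIs in 1326 cells, which allows a level of up to 0.256 CPM at a floor of 3 UMIs. Cells without an assigned type held another 132 UMIs.

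The Lymphocytes label covers several kinds of cells. Plasma genes set the Prg2 cells apart. In a split chosen after the values were seen, 79 CO cells had at least 1% of their UMIs in Jchain, Mzb1, Igha and Igkc, and these cells held 526 of the 549 Prg2 UMIs of the library (95.8%). Prg2 was read in 42 of the 79, at 531 CPM (486 to 578) over all of them. The cut was not sharp, since 40 cells lay between 0.5% and the cut. The 2 cells richest in Prg2 had 59 and 58 UMIs, drew 71.0% and 69.5% of all their UMIs from the 4 plasma genes, and held none of the other members. No Ear1, Ear2, Ear6, Siglecf or Ccr3 UMI was present in the 79 cells, and 10 Il5ra UMIs were present in 5 of them. With 991175 UMIs in the 79 cells, 0 UMIs allow a level of up to 3.72 CPM. In the 32078 CO cells not rich in plasma, neutrophil or macrophage genes, Ear2 stood at only 1.25 CPM and Ear1 at 0.416 CPM. The zeros therefore do not set the 79 cells apart. The genes that most separated the 24 CO Lymphocytes with 3 or more Prg2 UMIs from the 394 with none were Igha, Jchain, Igkc, Iglv1, Slpi, Iglv3, Iglc2, Trp53inp1, Txndc5 and Mzb1. Most of them encode immunoglobulin chains or proteins that help to fold and secrete them.

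In the DES library Prg2 was nearly absent from single cells, with 7 UMIs in 5 of 16312 cells. Lymphocytes held 3 of them, 2.01 CPM (0.415 to 5.89), all in 1 cell with 71.0% of its UMIs in the plasma genes, and Mesothelial cells held the other 4. Cells rich in plasma genes were 26 of 16312 in DES (0.159%) and 79 of 32387 in CO (0.244%), with a median depth of 2184.5 and 12380 UMIs. Of the 26, 20 had no assigned type (median 1307.5 UMIs) and 6 were Lymphocytes (median 4137 UMIs). The plasma and B cell list stood at 136000 CPM in CO Lymphocytes and 12100 CPM in DES Lymphocytes. This order is opposite to that of the sections, where the list and Prg2 were both higher in DES. With 1 library per treatment the difference in single cells has no replicate check. Per 1000 list UMIs, Lymphocytes gave 1.34 Prg2 UMIs in CO (1.21 to 1.47) and 0.167 in DES (0.0344 to 0.487), both below every section. Spots and single cells were made by different protocols, so these ratios are only set side by side.

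**Figure D4:**
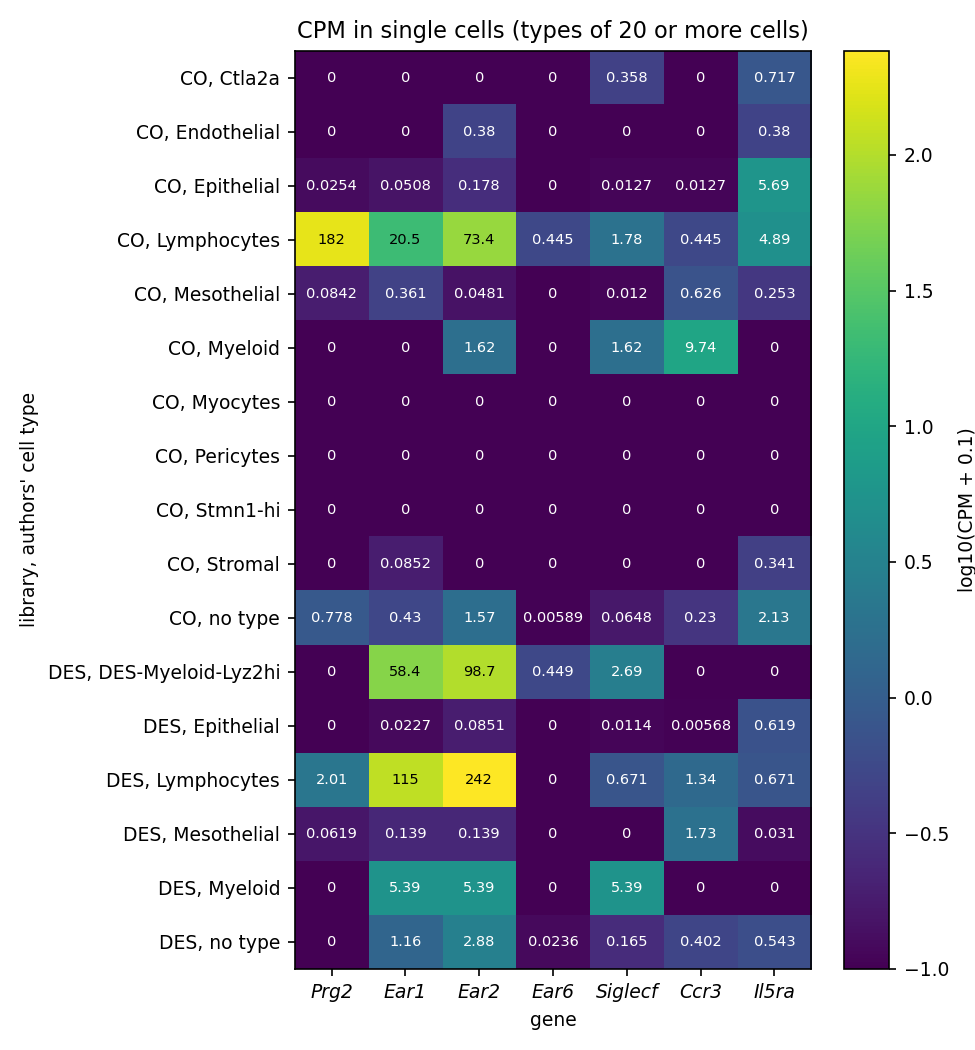
Levels of the 7 genes listed in the single-cell table by the authors' cell types in the CO and DES libraries, in CPM. Prg2 is highest in CO Lymphocytes at 182 CPM, Ear1 and Ear2 in DES Lymphocytes at 115 and 242 CPM, and Il5ra in CO Epithelial cells at 5.69 CPM.

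Ear1 and Ear2, ribonucleases of the granule, were rare in the sections. Ear2 was counted 10, 10, 25 and 16 times in CO A, CO B, DES A and DES B, or 0.8, 0.906, 2.74 and 1.62 CPM, and Ear1 2, 0, 4 and 5 times. The Ear2 levels of DES were above those of CO, and the interval of DES B (0.926 to 2.63) overlapped those of CO A (0.383 to 1.47) and CO B (0.435 to 1.67). In DES B, 7 of the 16 Ear2 UMIs came from 1 spot. Spots with an Ear2 UMI made up 0.698%, 0.491%, 1.02% and 0.663% of CO A, CO B, DES A and DES B. By that share DES B lay below CO A. The fitted log2 difference for Ear2 was 1.13 ± 0.5 (SE, n = 2 sections per group). In DES A, 15 of 25 Ear2 UMIs and 3 of 4 Ear1 UMIs lay in cluster 8, a cluster of 61 spots in which neutrophil genes summed to 2240 CPM and macrophage genes to 1480 CPM, and which had 1 Prg2 UMI. In DES B, 13 of 16 Ear2 UMIs lay in cluster 2, where neutrophil genes were at 21.5 CPM.

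Single cells of both libraries showed Ear1 and Ear2, together in 67 of the 262 CO cells and 100 of the 195 DES cells that held either. CO Lymphocytes held 46 Ear1 and 165 Ear2 UMIs, 20.5 and 73.4 CPM, and CO cells without an assigned type held a further 73 and 267, at 0.43 and 1.57 CPM. DES Lymphocytes held 172 and 360, 115 CPM (98.9 to 134) and 242 CPM (217 to 268). After thinning to 3000 UMIs, Ear2 was present in 13.5% (9.94% to 17.9%) of 310 CO Lymphocytes and in 32.4% (26.2% to 39.1%) of 213 DES Lymphocytes, against 15.6% and 37.7% unthinned. Epithelial cells had Ear2 in 0.0781% of CO cells and 0.0385% of DES cells after the same thinning. The makeup of the label differed between libraries, as 50 of 423 CO Lymphocytes and 6 of 239 DES Lymphocytes were rich in plasma genes, and neutrophil genes stood at 2140 CPM in CO and 6680 CPM in DES Lymphocytes.

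The DES library also had the type DES-Myeloid-Lyz2hi, 136 cells with 130 Ear1 and 220 Ear2 UMIs (58.4 and 98.7 CPM), of which 72 and 107 came from 1 cell. Ear2 was present in 12.5% of these cells, or 5.34% (2.18% to 10.7%) after thinning. DES Myeloid cells had 11 UMIs each of Ear1, Ear2 and Siglecf, all in 1 cell with 34187 UMIs and none of Prg2, Ccr3 or Il5ra. Ear2 exceeded Ear1 by 2.94 to 1 in the CO library (452 and 154 UMIs) and by 1.97 to 1 in the DES library (737 and 375 UMIs). CO Mesothelial cells went against this order, with 30 Ear1 and 4 Ear2 UMIs in 6866 cells. Ear10, from the same family, had 12 UMIs in DES cells.

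Leading genes were ranked in cells with 3 or more UMIs of Ear1 and Ear2 together, a limit chosen after the values were seen. All members were left out of that ranking, so it says nothing about them. In the 64 such DES Lymphocytes the leading genes against the 145 with none were Adgre4, Ace, Treml4, F13a1, Lst1, Vcan, Gngt2, Gpr141, Cd300ld and Msrb1. In the 29 such CO Lymphocytes they were Areg, Retnla, Ace, Treml4, Gngt2, Fcrls, Lyz1, Adgre4, Il6 and Chil1. Ace, Treml4, Adgre4 and Gngt2 were on both lists, and all 4 are known from monocytes of the blood. In the 12 such DES-Myeloid-Lyz2hi cells the leading genes were Chil3, Bglap, Fn1, Rbp4, Saa3, Wfdc21, Spag11b, Ly6d, Hspb1 and Plet1, of which Chil3 and Fn1 are known from alveolar and inflammatory macrophages. No cell type is assigned to these cells from those genes.

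Ear6 was found in 2 CO cells and 2 DES cells with 1 UMI each. Of those, the CO Lymphocyte and both DES cells also held Ear2. With 0 UMIs in each section its level was under 0.329 CPM at a floor of 3 UMIs per section, as was that of Epx. At this depth neither gene was detectable in any section.

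Siglecf was confined to DES A among the DES sections. It was counted 0, 3, 43 and 0 times in CO A, CO B, DES A and DES B, and the level in DES A was 4.72 CPM (3.41 to 6.35). DES B, at 0 UMIs, allowed up to 0.304 CPM, so the 2 DES sections differed from each other. Of the 43 UMIs, 28 lay in cluster 8 and 11 in cluster 1. The neutrophil list was also high in DES A, at 283 CPM against 17.4 to 29.8 CPM elsewhere. In 4 equal bins of DES A spots by the neutrophil list, also chosen after the values were seen, the top bin held 88.4% of the Siglecf UMIs, 80.0% of the Ear2 UMIs and 18.4% of the Prg2 UMIs. The lower bins held no UMI of the list and were tied. The top bin was also deeper, at a median of 7400 UMIs per spot against 3310, 3440 and 3480. Siglecf stood at 11.3 CPM in the top bin and at 1.04, 1.07 and 0.505 CPM in the lower ones. The part of neutrophil genes in the Siglecf level was not tested.

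In single cells Siglecf was rare, with 19 UMIs in CO and 27 in DES, of which 11 were in the DES Myeloid cell described above. DES-Myeloid-Lyz2hi cells had 6 UMIs in 5 of 136 cells, 2.69 CPM (0.988 to 5.86). Cells with at least 0.5% of their UMIs in neutrophil genes held 5 of the 19 and 5 of the 27, at 7.09 CPM in CO and 16.9 CPM in DES. The CO Lymphocyte with the most Siglecf had 2 UMIs and 5.22% of its UMIs in neutrophil genes.

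Ccr3, the receptor through which eotaxins act, was counted 2, 17, 0 and 1 times in CO A, CO B, DES A and DES B. CO B stood alone at 1.54 CPM (0.898 to 2.47), with each UMI in a separate spot and 9 of them in cluster 1, where muscle genes summed to 32900 CPM. CO B is the section with the tissue fold. Stromal clusters had 1, 1, 0 and 0 UMIs. In single cells Ccr3 was read mainly in Mesothelial cells, the layer that covers the uterus, with 52 UMIs in CO (0.626 CPM, 0.467 to 0.821) and 112 in DES (1.73 CPM, 1.43 to 2.09). The share of Mesothelial cells with a UMI was 0.699% in CO and 2.79% in DES, or 0.283% (0.17% to 0.441%) and 0.502% (0.303% to 0.783%) after thinning to 3000 UMIs. With 1 library per treatment these intervals hold no spread between mice, and the 2 shares are only set side by side. Epithelial cells had 1 UMI in each library. CO Myeloid cells reached a higher level, 9.74 CPM (3.57 to 21.2), from 6 UMIs in 3 of 67 cells.

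Il5ra, the chain that binds interleukin-5, was found mainly in Epithelial cells among the single cells with an assigned type. In the sections it was counted 8, 10, 1 and 19 times, or 0.64, 0.906, 0.11 and 1.92 CPM, with the 2 DES sections on either side of the CO sections. Of the 19 UMIs in DES B, 14 were in cluster 2, which held 31.6% of the section's UMIs and where epithelial genes summed to 4590 CPM. Cluster 7, at 4960 CPM of those genes, had 2. In 4 equal bins of spots by the epithelial list, the top bin held 1 of the 8 Il5ra UMIs of CO A and 5 of the 10 of CO B. It held 1 of 1 in DES A and 13 of the 19 of DES B. In the stromal clusters it had 2 UMIs in CO A and 0 in the other 3. CO Epithelial cells held 448 of the 849 Il5ra UMIs of their library, 5.69 CPM (5.17 to 6.24), in 373 of 2583 cells (14.4%). DES Epithelial cells held 109, 0.619 CPM (0.508 to 0.746), in 90 of 5255 cells (1.71%). At a common depth of 3000 UMIs the shares were 1.72% (1.25% to 2.3%) in CO and 0.135% (0.0541% to 0.277%) in DES, against 0.23% of CO Stromal cells and 0.119% of CO Mesothelial cells. The level was lower in DES than in CO epithelium, between 1 library of each, but the class was made of different cells. In the authors' joint clustering most CO Epithelial cells lay in clusters 0, 1, 13, 14, 15 and 17, and DES Epithelial cells lay in others, among them clusters 8 and 11 (351 and 257 cells, 0 and 1 Il5ra UMIs), in which basal genes summed to 5870 and 4960 CPM.

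In the authors' clustering of the epithelial cells of both libraries together, Il5ra in CO cells was highest in cluster 17 (19.0 CPM, 14.0 to 25.3, 134 cells) and cluster 13 (11.4 CPM, 8.73 to 14.6, 222 cells), which the study places in glands. The large clusters 0 and 1 had 4.98 CPM (4.18 to 5.88) and 4.94 CPM (4.17 to 5.82), below both. Cluster 19, also placed in glands, had 1 UMI in 62 cells. Of the DES cells in the same joint clustering, cluster 10 had the highest level at 3.37 CPM (2.32 to 4.74), followed by cluster 4 at 1.51 CPM (1.07 to 2.06), and every other DES cluster was under 0.8 CPM. In the authors' clusterings of each library alone, numbered separately, the highest levels were in cluster 14 of CO (22.0 CPM, 13.5 to 34.0, 28 cells) and cluster 5 of DES (3.61 CPM, 2.47 to 5.09, 295 cells). The epithelial list summed to 6330 and 7400 CPM in DES clusters 10 and 4, to 5900 and 5970 CPM in CO clusters 0 and 1 and to 9200 and 8470 CPM in CO clusters 17 and 13. CO Lymphocytes also had Il5ra, with 11 UMIs at 4.89 CPM (2.44 to 8.76). Of these UMIs, 6 were in the 50 Lymphocytes rich in plasma genes. All 79 CO cells rich in plasma genes stood at 10.1 CPM (4.84 to 18.6) for Il5ra, from 10 UMIs, 4 of them in 1 cell without an assigned type.

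Most cells held none of the genes, with at least 1 of the 7 present in 1146 of 32387 CO cells and 446 of 16312 DES cells. At least 2 of the 7 genes were present in 77 CO cells and 103 DES cells, of which 66 and 94 held only Ear1 and Ear2. Leaving the Ear genes aside, 2 or more of Prg2, Siglecf, Ccr3 and Il5ra were present in 2 CO cells and 0 DES cells. Prg2 cells with any other member numbered 1 of 65 in CO and 0 of 5 in DES. With so few cells holding any of the 7 genes, few would hold 2 of them by share alone. Nothing is read from the counts of Prg2, Siglecf, Ccr3 and Il5ra together or of Prg2 with another member.

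The other genes of the eosinophil pathway were taken from 5 lists of 55 genes: chemoattractants, growth and type 2 cytokines, receptors and adhesion molecules, other granule proteins and enzymes, and factors of the lineage. In whole sections 39 were tested, 4 were higher in DES and 1 was lower, where 2.67% and 2.63% of all genes tested were, and their median log2 difference was 0.468 against -0.00518 over all genes tested. By list, chemoattractants gave 1 higher of 7 tested, cytokines 1 higher of 2, receptors and adhesion molecules 1 higher of 15, other granule proteins 1 higher and 1 lower of 8, and lineage factors 0 of 7. In stromal spots 30 were tested, 1 was higher and 0 were lower, where 0.796% and 0.673% of all genes tested were, with a median of -0.0527 against 0.00179. All p-values come from the quasi-likelihood test of edgeR, with n = 2 sections per group, and were adjusted by Benjamini-Hochberg over all genes tested. Each section came from its own mouse.

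Il33, an alarmin cytokine that activates type 2 immune cells, was at 25.3 and 23.6 CPM in CO A and CO B and at 300 and 297 CPM in DES A and DES B. The DES sections were near each other and far above the CO sections, with a log2 difference of 3.40 ± 0.176 (SE; edgeR adjusted p = 0.0141). In stromal spots its log2 difference was 2.92 ± 0.485 (edgeR adjusted p = 0.0346). In those spots the basal list had 0 and 83 UMIs in CO A and CO B and 7167 and 692 UMIs (7060 and 2000 CPM) in DES A and DES B, and muscle genes stood at 888 and 700 CPM against 2710 and 8370 CPM. Basal, muscle and stroma lists also differed between CO and DES sections, at the values given above, and the epithelial list stood at 3950 and 3650 CPM in CO and 3510 and 3800 CPM in DES. Their part in the Il33 difference was not tested. In single cells Il33 was highest in Epithelial cells among types of over 5 cells, at 48.7 CPM in CO and 152 CPM in DES.

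Ccl3, a chemokine of activated myeloid cells, was higher in DES by 2.95 ± 0.438 (edgeR adjusted p = 0.0351), from 0.8 and 0.906 CPM to 9.76 and 5.67 CPM. Ccl6, a chemokine of myeloid cells and eosinophils, was higher by 2.78 ± 0.467 (edgeR adjusted p = 0.0438), from 17.4 and 43.5 CPM to 215 and 265 CPM. Itgb2, the beta-2 integrin chain shared by leukocytes, was higher by 1.80 ± 0.319 (edgeR adjusted p = 0.0488), from 7.84 and 8.88 CPM to 43.5 and 24.3 CPM. None of these 3 genes is particular to eosinophils. The neutrophil list moved with them in DES A and the macrophage list in both DES sections, at the values given above, and their part in these differences was not tested.

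Retnla, a secreted protein of macrophages and eosinophils under type 2 cytokines, was lower in DES. It had 86 and 74 UMIs in CO A and CO B and 1 UMI in each DES section, 6.88 and 6.71 CPM against 0.11 and 0.101 CPM. Summed over sections CO exceeded DES 64.6-fold (exact binomial 95% interval of the counts, 17.6 to 538). The log2 difference was -6.06 ± 0.482 (edgeR adjusted p = 0.019). In single cells it was at 628 CPM in CO Lymphocytes, 547 CPM in CO Myeloid cells and 0.671 CPM in DES Lymphocytes. Without DES A or without DES B none of the 5 calls in whole sections was kept, with log2 differences of 3.41 and 3.36 for Il33 (adjusted p = 0.0515 and 0.0604), -6.09 and -6.05 for Retnla, 2.95 and 2.58 for Ccl6, 2.53 and 3.25 for Ccl3 and 1.35 and 2.13 for Itgb2, and in stromal spots the call of Il33 was lost without CO B (log2 difference 2.55, adjusted p = 0.0755) and without DES A (2.22, adjusted p = 0.162).

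Eotaxins and the other named companions did not pass the test. Ccl11, eotaxin-1, was at 80.7, 23.5, 46.2 and 24.3 CPM in CO A, CO B, DES A and DES B, so that the groups overlapped (log2 difference -0.80 ± 0.648, edgeR adjusted p = 0.519). The log2 ratio of its level in stromal to other spots was 1.94 ± 0.29 in CO and 2.05 ± 0.315 in DES (SE), and in the CO library Stromal cells held 11120 of its 21006 UMIs. Prg2 UMIs in those Stromal cells were 0. Ccl24, eotaxin-2, was at 0.4, 1.9, 1.32 and 1.11 CPM (adjusted p = 0.957), and Ccl5 at 6.88, 14.2, 8.99 and 10.2 CPM (adjusted p = 0.668). Csf2rb, the beta chain shared by the receptors of interleukin-5, interleukin-3 and GM-CSF, averaged 6.9 CPM in CO and 22.3 CPM in DES (log2 difference 1.47 ± 0.327, adjusted p = 0.0752). Il5 had 0, 1, 0 and 1 UMIs and could not be tested.

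**Figure D5:**
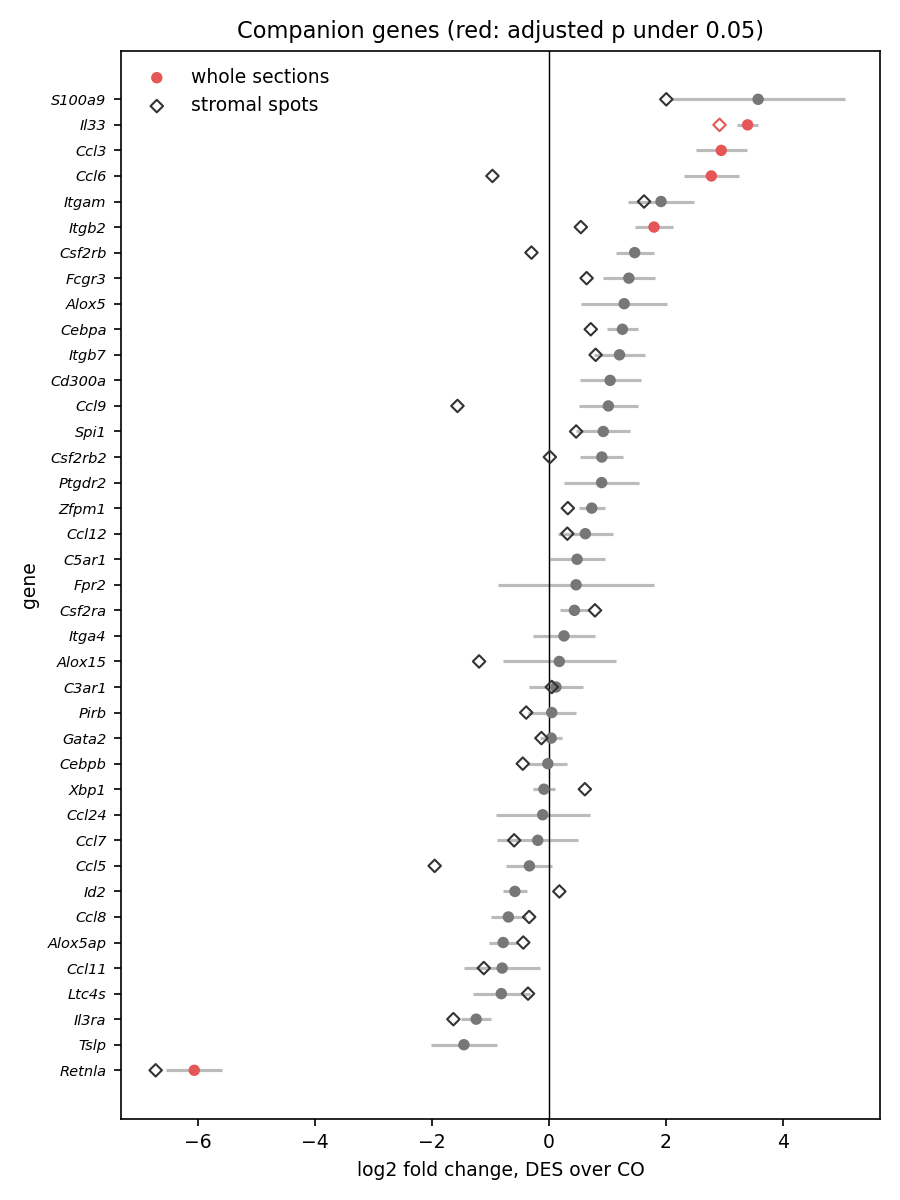
Log2 difference between DES and CO for the 39 companion genes tested in whole sections, with its SE. Values in stromal spots are shown without SE, for those of the genes tested there. In whole sections Il33, Ccl3, Ccl6 and Itgb2 lie above 0 and Retnla below it past the adjusted p of 0.05, while Ccl11, Ccl24, Ccl5 and Csf2rb do not pass.

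The genes whose pattern over the 40 clusters was most like that of the 8 genes together were sought among 11364 genes with at least 200 UMIs, by Pearson's r of log2(CPM + 10). They were Igkc (0.814), Jchain (0.814), Plbd1 (0.808), Slpi (0.805), H2-Ab1 (0.805), H2-DMa (0.798), Rbp4 (0.796), Igha (0.794), Apoe (0.792) and Arhgap45 (0.781). Igkc, Jchain and Igha are genes of secreted immunoglobulin A, and H2-Ab1 and H2-DMa belong to antigen presentation. Because Prg2 made up 79.8% of the summed UMIs, the pattern is mostly that of Prg2, and with Prg2 alone r was 0.897 for Jchain and 0.887 for Igkc. The order depended on differences between sections. Of the 10 genes, 8 stayed among the 10 by Spearman's rho, 1 with each section's mean removed and 0 in the 20 DES clusters only. The 1 that stayed with section means removed was Plbd1, at rank 7. Igkc, Jchain and Igha then ranked 107, 102 and 186, with r of 0.65, 0.653 and 0.614. In the DES clusters they ranked 222, 412 and 396.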

How the data were processed

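Spatial (Visium) and single-cell (10x) RNA-seq libraries were made from uteri of CD-1 mice. The authors deposited UMI counts per gene and spot or cell, with clusters and cell types. Per the labels, reads were handled with bcl2fastq 2.20.0.422, Space Ranger 1.2.2 and Cell Ranger 3.0.1 against mm10, and the study's methods state that potential doublets were removed. Whether that was done before deposit is not given in the sources used here, and no doublet caller was run, so doublets may be among the cells counted.

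The genes, marker lists and companion lists were chosen with earlier results of these data known. Not every gene of the plasma and B cell list is reported here by name. Named genes were the 8 genes, every companion gene past the threshold, Ccl11, Ccl24, Ccl5, Il5, Il33, Csf2rb and Prg3, the 10 genes most like the 8, and the cell types with the highest levels. Counts were summed over all spots, or over stromal spots, of each section and tested with edgeR 4.0.16 (TMM, filterByExpr, quasi-likelihood) in R 4.3.3, with adjusted p at 0.05. DESeq2 1.42.0 was an alternative, as were other stromal spots, filters and leaving out each section. Counts were simulated with the same fixed spread between sections for every gene, a spread not estimated from these data. On them 100% of 4-fold and 34% of 2-fold increases were recovered in whole sections (13918 genes). In stromal spots (8508 genes) 92% and 16% were recovered. Of 4-fold and 2-fold decreases, 95.9% and 31.2% were recovered in whole sections, and 70.5% and 21.7% in stromal spots. These shares do not give the power of the tests on the sections themselves. Shares of cells were compared after thinning each cell to 3000 UMIs, which left out 5741 CO and 4077 DES cells. Leading genes of cells were ranked by log2 of the CPM ratio with 20 CPM added, and the 8 genes were left out of the ranking. Stromal spots were clusters drawn from these same counts. Sections held 9117099 to 12506177 UMIs, so 3 UMIs, taken as the floor, correspond to 0.24 to 0.329 CPM.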

Additional observations from a re-analysis of the deposited data

Results flagged for a closer look

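The log2 ratio of stromal to other spots was compared between DES and CO for the companion genes, with edgeR and adjustment over all genes tested (n = 2 sections per group). Of 38 companion genes tested, 25 had a lower fitted ratio in DES, of which 4 passed an adjusted p of 0.05, and 0 passed with a higher ratio. Over all 13542 genes tested, 0.783% passed with a lower and 2.58% with a higher ratio in DES. Spot clusters were drawn from the same counts, so these p-values are too small. For Ccl6 the difference was -4.03 (adjusted p = 6.51e-10), with a ratio of 2.16 in CO and -1.87 in DES. Stromal spots of CO A and CO B had 48.3 and 183 CPM of Ccl6 against 16.0 and 30.8 CPM in other spots, and those of DES A and DES B had 69.9 and 54.8 CPM against 233 and 273 CPM. In single cells Ccl6 was at 3350 CPM in DES-Myeloid-Lyz2hi cells and at 21.0 CPM in DES Epithelial cells, against 2.26 CPM in CO Epithelial cells. Ccl9, chosen after its values were seen, differed by -2.86 (adjusted p = 0.000296). Csf2rb differed by -2.17 (adjusted p = 0.022) and Ccl5 by -1.88 (adjusted p = 0.0404).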

How the results depend on the processing

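With DESeq2, 822 genes were higher and 969 lower in DES whole sections against 376 and 371, with 8 and 2 companion genes, and in stromal spots 1 companion gene was lower. Without a filter on low counts, stromal spots gave 368 genes higher and 346 lower, with 2 and 4 companion genes, against 71 and 60. In the top 15% of spots by stromal score 18 were lower. These spots held 70.3% and 58.0% of the stromal cluster spots in CO A and CO B, and 29.9% and 26.5% in DES A and DES B. With single sections left out, whole sections gave 3 to 1311 genes higher and 0 to 1508 lower, 0 to 11 and 0 to 2 companion genes, and a Prg2 log2 difference of 2.38 to 3.95. The lowest counts came without DES A (14 higher) or DES B (3 higher), the highest without CO A (1311) or CO B (1148). Stromal spots gave 38 to 158 genes higher and 2 to 199 lower, 0 to 1 and 0 to 4 companion genes, and Prg2 2.73 to 9.84. The Prg2 ratio of stromal to other spots was -6.47 to 2.71 in CO (-6.47 without CO B) and 2.71 to 3.21 in DES, and 1.02 in CO with DESeq2. The lone section of a group was assumed to vary like the others, and no other cause was tested. No paired analysis was possible because the sections are different mice and their letters pair nothing across CO and DES.

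Shares of single cells moved with the depth of thinning. At 5000 UMIs they were 18.3% for Prg2 in CO Lymphocytes, 46.2% for Ear2 in DES Lymphocytes, 2.89% for Il5ra in CO Epithelial and 0.785% for Ccr3 in DES Mesothelial cells. Unthinned they were 14.4% and 1.71% for Il5ra in CO and DES Epithelial, 2.79% for Ccr3 in DES Mesothelial and 12.5% for Ear2 in DES-Myeloid-Lyz2hi cells. Over all CO cells in place of annotated cells, Prg2 was at 1.55 in place of 2.27 CPM, Ear2 at 1.28 in place of 1.01 CPM and Il5ra at 2.4 in place of 2.65 CPM. Of the 10 like genes, 0 stayed with the DES clusters alone and 1 with section means removed, the latter chosen after seeing the data. Counts per section were 0 for Epx and Ear6, at most 5 UMIs for Ear1 and at most 43 for Siglecf, Ccr3 and Il5ra, which limits the precision of their levels.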
